A study of Mus musculus with 18 samples.

Results

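The cytosolic nucleic acid sensors and their adaptors were followed as 10 genes, taken as the rows of the deposited count matrix whose gene name was Cgas, Sting1, Tbk1, Ikbke, Trex1, Zbp1, Rigi, Ifih1, Dhx58 or Mavs. All 10 names were found, each in 1 row, among the 57180 genes of the matrix, and all 10 passed the filter on low counts that left 14263 genes for testing, Zbp1 through its counts in the groups with transfected DNA only.

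Cells sense misplaced nucleic acid in the cytosol through separate receptor proteins for DNA and RNA. cGAS binds double-stranded DNA and makes the second messenger cGAMP, which activates STING on the endoplasmic reticulum, whereas the RNA helicases RIG-I (Rigi) and MDA5 (Ifih1) act through MAVS on mitochondria. Both routes meet at the kinases TBK1 and IKKε (Ikbke), which phosphorylate IRF3 and so turn on interferon-β, and interferon in turn raises the transcription of several of the sensors themselves.

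RNA was sequenced from L929 cells, an established mouse fibroblast line labelled wild type, in 6 groups of 3 libraries, which the study describes as biological replicates. Of the 6, 3 received no DNA: Mock (labelled DMSO), AOA, and AOA plus aspartate (AOA+Asp). The other 3 received HT-DNA alone, together with AOA (HT-DNA+AOA), or together with both AOA and aspartate (HT-DNA+AOA+Asp). AOA (aminooxyacetic acid) inhibits aminotransferases, the enzymes that make aspartate, and was given at 0.5 mM from 1 h before the DNA, with aspartate added back at 20 mM. HT-DNA, herring testis DNA that activates cGAS in the cytosol, was transfected with a Lipofectamine reagent at 0.5 μg/ml for 6 h. No group received aspartate alone, and the labels do not say whether the groups without HT-DNA received the transfection reagent, so HT-DNA and transfection cannot be told apart.

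Libraries held 17901605 to 24057343 counts. Levels are in CPM, the counts of a gene relative to the size of its library after scaling with edgeR's TMM factors. Changes are log2 fold changes of 3 libraries against 3. Their standard error (SE) comes from a single model whose spread was estimated over all 18 libraries. A gene was called higher or lower at an adjusted p under 0.05 (edgeR's quasi-likelihood test, Benjamini-Hochberg over all genes tested). Of the 12 fibroblast markers, 10 reached 1 CPM and their sum ran from 5349 to 7617 CPM, against 2 of 8 leukocyte and macrophage markers (Cd68 and Lyz2, 111 to 156 CPM in sum), 0 of 4 epithelial and 0 of 3 endothelial markers. In RNA from whole cultures, fewer cells with a transcript and less of it per cell cannot be told apart. Comparisons differed widely in how many genes were called in either direction. HT-DNA stood apart from Mock in 48.2% of all genes and from HT-DNA+AOA+Asp in 46.6%, whereas adding HT-DNA to AOA called 13.4% and adding it to AOA with aspartate called 3.45%. With only the libraries of the groups compared in the fit, these shares were 57.8%, 58.4%, 2.96% and 14.2%. The order of the last 2 thus depended on the libraries fitted. Shares of all genes given below are from the fit of all 18 libraries unless stated. Scaling by library totals in place of TMM shifted the median of all genes by -0.131 in AOA against Mock and by -0.111 in HT-DNA against Mock, and by less than 0.1 elsewhere. It also changed the share of calls that were higher from 49.1% to 32.1% in AOA against Mock, from 50.7% to 62.2% in AOA+Asp against AOA, from 39.0% to 20.9% in AOA+Asp against Mock and from 50.2% to 35.2% in HT-DNA against Mock. The same split went from 49.8% to 62.2% in HT-DNA+AOA+Asp against HT-DNA+AOA and from 46.7% to 64.5% in the interaction of AOA with HT-DNA, and no member changed direction with it in a comparison where it was called.

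Sequence near the start sites is shown for the 2 members that rose with HT-DNA and carry the interferon-stimulated response element (ISRE) core in their promoter window. The RefSeq promoter table (GRCm38.p6), which spans 250 bases before to 50 bases after each start, was searched on both strands for the ISRE core GAAANNGAAA and the NF-κB site GGGANNTTCC. Windows of 7 members were used, 8 in all. None was of Zbp1, Dhx58 or Sting1, whose promoters were not searched. The ISRE core was present in 3.45% of the 32544 promoters of the table and the NF-κB site in 1.47%. Among the members, the ISRE core was found for Ifih1 at bases 33 to 42 after the start and for Rigi at bases 3 to 12 after the start. No window of the other members searched held it, and the NF-κB letters were found in none of the 8 windows. Both stretches run 5′ to 3′ on the strand of the gene and have the matched letters in capitals, which in Rigi are the reverse complement of the core.
Ifih1, chr2:62646206-62646235, minus strand, GRCm38: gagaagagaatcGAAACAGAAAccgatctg
Rigi, chr4:40239804-40239833, minus strand, GRCm38: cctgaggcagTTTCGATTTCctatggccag

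HT-DNA raised Rigi, Ifih1 and Dhx58 in all 3 backgrounds tested, that is without AOA, with AOA, and with AOA and aspartate. Zbp1 was called higher in each as well and is included in the counts of members below. Because it passed the filter only through its counts in the groups with HT-DNA, the direction of these calls was largely set by the filter. Trex1 was also called higher in each as deposited, but with AOA and aspartate its call was lost when it was summed with Atrip, a gene that overlaps it (0.16, adjusted p = 0.392), and without AOA+Asp replicate 1 (0.0645) or HT-DNA+AOA+Asp replicate 1 (0.0845). In HT-DNA against Mock, 6 of the 10 members were higher, while 24.2% of all genes tested were called higher. A further 2 members, Sting1 and Tbk1, were lower, against 24% of all genes, and the median change of the members was 0.66, against -0.01 over all genes. In HT-DNA+AOA against AOA, 6 members were higher (6.46% of all genes were called higher) and 0 were lower (6.98%), with a median of 1.84. In HT-DNA+AOA+Asp against AOA+Asp, 5 members were higher (1.93% of all genes) and 0 were lower (1.52%), with a median of 0.58. Mavs was the added call without AOA and Cgas the added call with AOA.

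**Figure D1:**
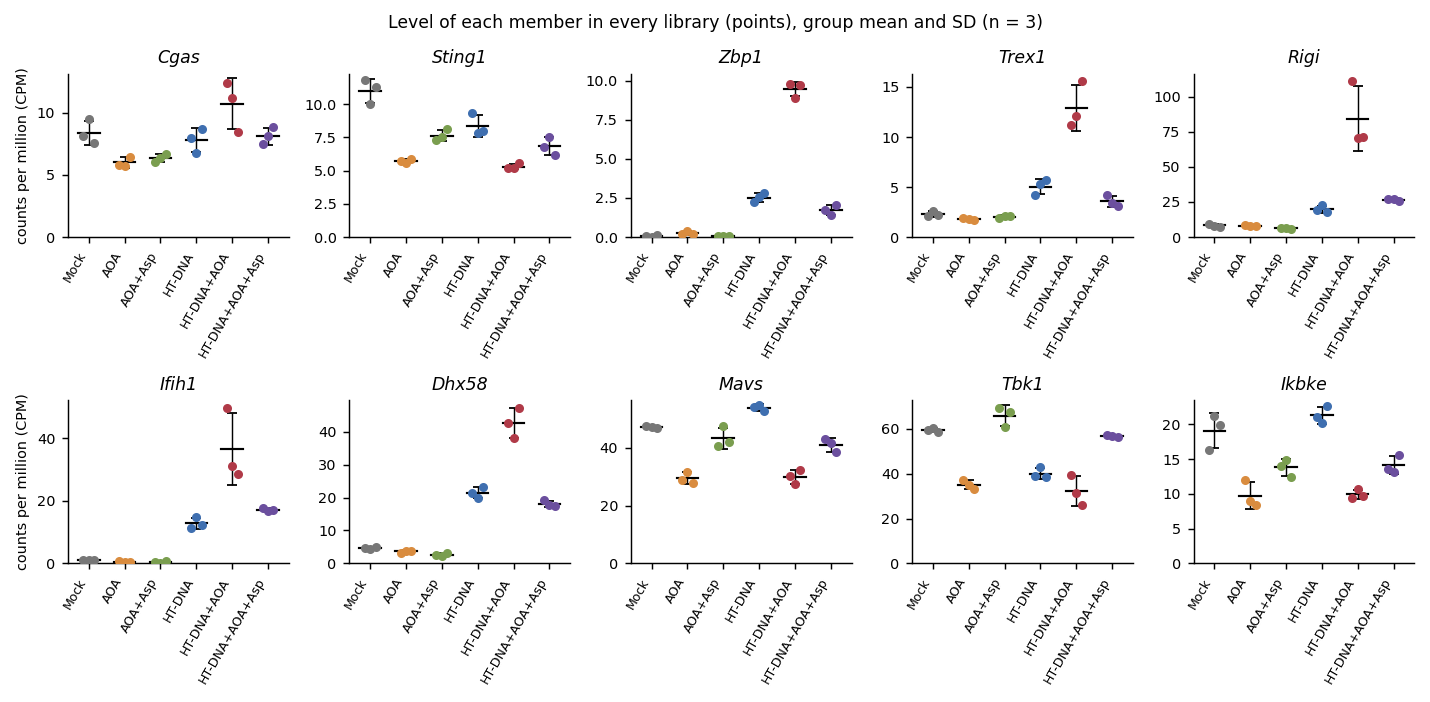
CPM of each of the 10 members in every library by group, with each point a library and the bar and whiskers the mean and SD of 3. Zbp1, Trex1, Rigi, Ifih1 and Dhx58 are highest in HT-DNA+AOA, whereas Sting1, Ikbke and Mavs are low in both AOA groups without aspartate.

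AOA alone lowered Sting1, Tbk1, Ikbke and Mavs and, in calls that single libraries could undo, Cgas, Ifih1 and Dhx58. In AOA against Mock, 7 members were lower (23.3% of all genes were called lower) and 1, Zbp1, was higher (22.4% called higher), with a median of -0.58 against 0.02 over all genes. The 8 calls became 5 without Mock replicate 2 or without AOA replicate 2. Against the background of HT-DNA, the members divided. In HT-DNA+AOA against HT-DNA, 6 members were higher (22.8% of all genes), namely Cgas, Trex1, Zbp1, Rigi, Ifih1 and Dhx58, and the other 4, Sting1, Tbk1, Ikbke and Mavs, were lower (22.7% of all genes). The shift of the HT-DNA response by AOA was tested as the interaction of AOA with HT-DNA. It was positive for 6 members (7.23% of all genes were called higher) and negative for 0 (8.26%). These 6 were Cgas, Tbk1, Trex1, Rigi, Ifih1 and Dhx58, and Zbp1 was not called (0.15, adjusted p = 0.966). For Tbk1 (0.45, adjusted p = 0.0468) the positive value was a smaller fall, and most single libraries could undo its call. The call of Trex1 was lost when it was summed with Atrip (0.14, adjusted p = 0.426).

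In DNA-stimulated cells, all 10 members were called with aspartate. In HT-DNA+AOA+Asp against HT-DNA+AOA, the 6 members above were lower (23.9% of all genes) and the other 4 were higher (23.7%). Leaving out 1 library gave 8 to 10 members called there. The call of Cgas held in 7 of its 13 alternatives and that of Sting1 in 10 of 13. Without HT-DNA, in AOA+Asp against AOA, 4 members were higher (23.5% of all genes) and 2 were lower (22.8%). The interaction of aspartate with HT-DNA in AOA-treated cells was negative for 3 members (0.785% of all genes were called lower), Trex1, Rigi and Dhx58, and positive for 0 (0.266%). Groups with both AOA and aspartate were also compared with those that had neither. In AOA+Asp against Mock, 3 members were lower (3.95% of all genes) and 0 were higher (2.52%), and in HT-DNA+AOA+Asp against HT-DNA 4 were lower (23.5%) and 2 were higher (23.2%). Leaving out 1 library gave 2 to 3 members called in the former and 4 to 8 in the latter. In the latter, 46.6% of all genes were called either way. These comparisons share groups, so their counts are not independent of each other.

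**Figure D2:**
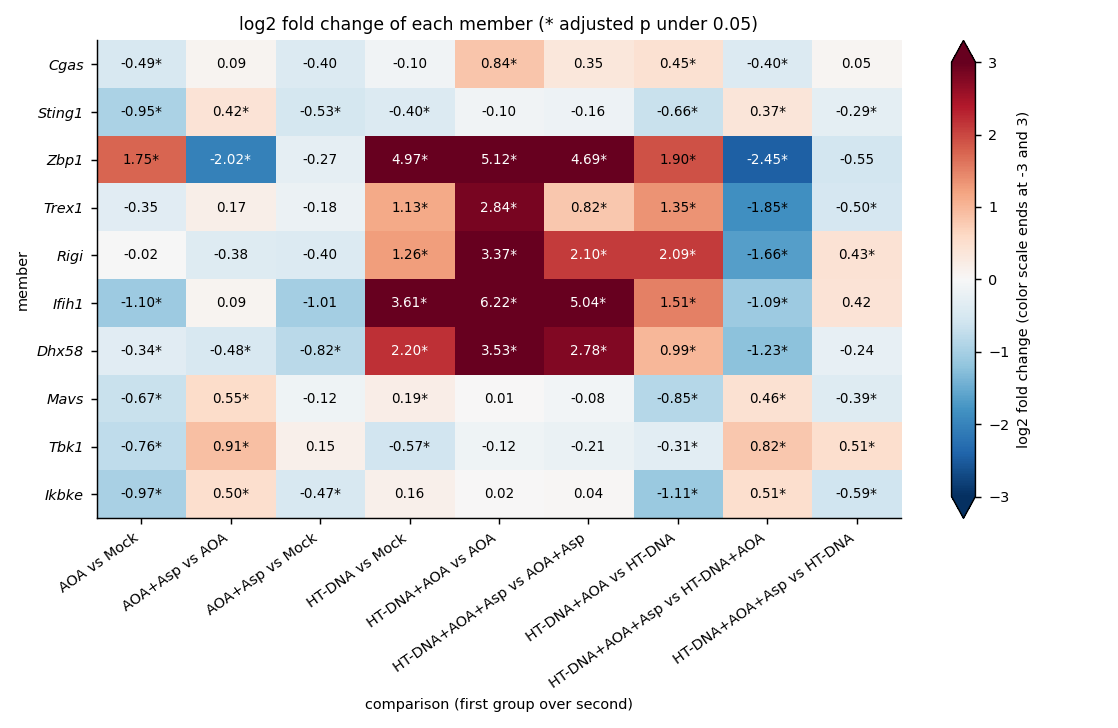
log2 fold change of each member (rows) in the 9 comparisons between groups (columns, first group over second), with an asterisk where the adjusted p was under 0.05. All 10 members carry an asterisk in HT-DNA+AOA against HT-DNA and in HT-DNA+AOA+Asp against HT-DNA+AOA, with opposite signs.

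Cgas, the sensor that makes cGAMP on double-stranded DNA, was not called in HT-DNA against Mock and rose with HT-DNA in AOA-treated cells. It stood at 8.13, 9.46 and 7.55 CPM in Mock and at 7.98, 6.77 and 8.69 CPM in HT-DNA. The AOA libraries held 5.8, 5.71 and 6.45 CPM, and the HT-DNA+AOA libraries 12.4, 11.2 and 8.41 CPM. The ranges of Mock and HT-DNA overlapped, the AOA libraries lay below all Mock libraries, and HT-DNA+AOA replicate 3 lay within the HT-DNA range. Cgas was -0.10 (SE 0.137) in HT-DNA against Mock, with an adjusted p of 0.574. It was 1.79-fold higher in HT-DNA+AOA than in AOA (log2 0.84, SE 0.141, adjusted p = 0.000426), and the interaction of AOA with HT-DNA was 0.94 (SE 0.197, adjusted p = 0.00504). The rise over HT-DNA was smaller (log2 0.45, adjusted p = 0.0113) and was not called without HT-DNA replicate 2 (0.35, adjusted p = 0.0646) or without HT-DNA+AOA replicate 1 (0.33, adjusted p = 0.0648), in a range of 0.000626 to 0.0861 over its alternatives. With aspartate, Cgas stood at 7.45, 8.08 and 8.81 CPM in HT-DNA+AOA+Asp, and the fall from HT-DNA+AOA (-0.40, adjusted p = 0.0226) was lost without HT-DNA+AOA replicate 1 (0.103) or 2 (0.0735) and without HT-DNA+AOA+Asp replicate 1 (0.0912) or 2 (0.0579), in a range of 0.00197 to 0.103. The fall of Cgas in AOA against Mock (-0.49, adjusted p = 0.00852) was lost without Mock replicate 2 (0.0529), the highest p among its alternatives, which began at 0.0024.

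Sting1, the adaptor that binds cGAMP, was highest in Mock and lowest where AOA was present without aspartate. Mock libraries held 11.8, 10 and 11.3 CPM, AOA libraries 5.69, 5.54 and 5.87 CPM, and AOA+Asp libraries 7.28, 7.54 and 8.09 CPM, with no overlap between the 3 groups. The fall with AOA was -0.95 (SE 0.109, adjusted p = 1.19e-06), and Sting1 was 0.42 higher in AOA+Asp than in AOA (SE 0.111, adjusted p = 0.00451) and -0.53 from Mock (adjusted p = 0.00446). With HT-DNA alone it stood at 9.3, 7.82 and 7.95 CPM, below every Mock library (-0.40, SE 0.105, adjusted p = 0.00435). HT-DNA+AOA libraries held 5.17, 5.18 and 5.55 CPM, -0.66 from HT-DNA (SE 0.113, adjusted p = 9.46e-05). The interaction of AOA with HT-DNA was not called (0.30, adjusted p = 0.198). In HT-DNA+AOA+Asp it stood at 6.77, 7.5 and 6.2 CPM, above every HT-DNA+AOA library (0.37, adjusted p = 0.0135), a call lost without HT-DNA+AOA+Asp replicate 2 (0.072) within a range of 0.00281 to 0.0837. The difference of Sting1 from HT-DNA (-0.29, adjusted p = 0.0354) was not called without HT-DNA replicate 1 (0.175) or without HT-DNA+AOA+Asp replicate 1 (0.0813) or 3 (0.148), in a range of 0.0269 to 0.193.

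Zbp1, a sensor of Z-form nucleic acid that engages RIPK1 and RIPK3, was nearly absent without HT-DNA. Its counts were 2, 0 and 3 in the Mock libraries, 4, 9 and 3 in AOA, and 1, 1 and 2 in AOA+Asp, where 3 counts is the limit that a value of 0 allows. With HT-DNA its libraries held 2.22, 2.56 and 2.8 CPM, with HT-DNA+AOA 9.77, 8.93 and 9.72 CPM, and with HT-DNA+AOA+Asp 1.74, 1.4 and 2.04 CPM. Every HT-DNA+AOA library lay above every HT-DNA library, and every HT-DNA+AOA+Asp library lay below every HT-DNA library. Zbp1 was 3.74-fold higher in HT-DNA+AOA than in HT-DNA (log2 1.90, SE 0.209, adjusted p = 5.01e-07), and it fell by 2.45 on the log2 scale with aspartate (SE 0.218, adjusted p = 5.12e-08). The remaining difference of HT-DNA+AOA+Asp from HT-DNA (-0.55, SE 0.23) had an adjusted p of 0.0566, and without HT-DNA+AOA+Asp replicate 3 it was -0.69 (adjusted p = 0.049, in a range of 0.0377 to 0.205). Since the groups without HT-DNA rest on few counts, the folds against them are given as ratios of summed counts scaled by library size, with exact 95% intervals that cover counting error only: 34 in HT-DNA over Mock (14.3 to 106), 35.4 in HT-DNA+AOA over AOA (21.6 to 62.3), and 28.3 in HT-DNA+AOA+Asp over AOA+Asp (10.7 to 106). The same ratio was 3.58 (1.25 to 12.5) in AOA over Mock and 4.39 (1.42 to 18) in AOA over AOA+Asp. The call in AOA against Mock (adjusted p = 0.018) was lost without Mock replicate 2 (0.139) or AOA replicate 2 (0.191), and that in AOA+Asp against AOA (adjusted p = 0.00915) without AOA replicate 2 (0.125). Those p-values ranged from 0.0103 to 0.191 and from 0.00896 to 0.125 over the alternatives, and the interactions of Zbp1 were not called (adjusted p = 0.966 for AOA and 0.956 for aspartate).

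Trex1, the exonuclease that degrades cytosolic DNA, followed Zbp1 in direction under HT-DNA, but its counts are uncertain. Of its 31-base stretches in the GENCODE M21 annotation of GRCm38, 97.6% also lie in other genes, since its exons overlap those of Atrip on the same strand, and counting may have split reads between them. As deposited, Trex1 stood at 2.12, 2.61 and 2.18 CPM in Mock, 4.19, 5.26 and 5.68 CPM in HT-DNA, and 11.2, 12.1 and 15.6 CPM in HT-DNA+AOA. The 3 groups did not overlap, and the HT-DNA+AOA+Asp libraries (4.21, 3.42 and 3.12 CPM) lay largely below those of HT-DNA. Trex1 rose by a log2 of 1.13 (SE 0.169, adjusted p = 5.2e-05) in HT-DNA against Mock and by 1.35 (SE 0.151, adjusted p = 6.37e-07) in HT-DNA+AOA against HT-DNA, and fell by 1.85 (SE 0.156, adjusted p = 2.68e-08) with aspartate. Its AOA libraries held 1.86, 1.85 and 1.69 CPM and its AOA+Asp libraries 1.87, 2.1 and 2.11 CPM, with no call between them or against Mock, although scaling by library totals called AOA lower than Mock (-0.48, adjusted p = 0.0366). Summed with Atrip, which itself stood at 28.5 CPM in Mock and 42.5 CPM in HT-DNA+AOA, the same changes were 0.44, 0.41 and -0.57 and were still called. Under that sum, the difference of AOA from Mock turned from -0.35 (adjusted p = 0.139) to 0.27 (adjusted p = 0.0149, in a range of 0.0149 to 0.367 over its alternatives). The interaction of AOA with HT-DNA went from 1.71 (adjusted p = 0.00024) to 0.14 (0.426) and that of aspartate from -2.02 (adjusted p = 0.000159) to -0.42 (0.111), so that neither was called. The smaller changes were also lost under the sum: 0.82 became 0.16 (adjusted p = 0.392) in HT-DNA+AOA+Asp against AOA+Asp, and -0.50 became -0.17 (0.109) in HT-DNA+AOA+Asp against HT-DNA. The former call was lost as well without AOA+Asp replicate 1 (0.0645) or HT-DNA+AOA+Asp replicate 1 (0.0845), the latter without HT-DNA replicate 3 (0.0908) or HT-DNA+AOA+Asp replicate 2 (0.0607) or 3 (0.0846), and their lowest p-values were 0.00419 and 0.0115.

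**Figure D3:**
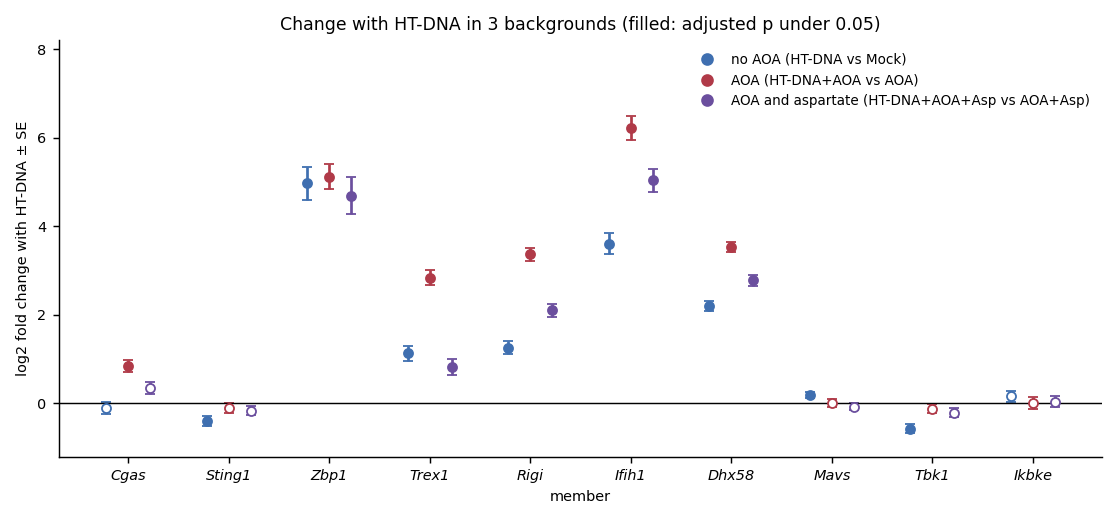
log2 fold change with HT-DNA of each member, with its SE, without AOA (blue), with AOA (red) and with AOA and aspartate (purple), filled where the adjusted p was under 0.05. Rigi, Ifih1, Dhx58, Trex1, Cgas and Zbp1 have the highest value with AOA, although the values of Zbp1 lie close together. Mavs, Tbk1, Ikbke and Sting1 lie near or below 0 in every background.

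Rigi encodes RIG-I, the sensor of RNA with a 5′ triphosphate. Its libraries held 9.14, 8.11 and 7.5 CPM in Mock and 8.38, 7.86 and 8.2 CPM in AOA, and these ranges overlapped (-0.02, SE 0.163, adjusted p = 0.926). They held 19.2, 22.5 and 17.8 CPM in HT-DNA, 111, 70.4 and 71.7 CPM in HT-DNA+AOA, and 27.1, 27.2 and 25.7 CPM in HT-DNA+AOA+Asp. The HT-DNA+AOA libraries lay above all others, with replicate 1 the highest. The rise with HT-DNA was 2.4-fold without AOA (log2 1.26, SE 0.151, adjusted p = 6.23e-06) and 10.4-fold with it (3.37, SE 0.152, adjusted p = 3.85e-12). The interaction of AOA with HT-DNA was 2.11 (SE 0.212, adjusted p = 8.28e-06), between 1.86 and 2.24 over its 19 alternatives. In HT-DNA+AOA+Asp Rigi was 3.16-fold lower than in HT-DNA+AOA (-1.66, SE 0.135, adjusted p = 1.6e-08), and the interaction of aspartate with HT-DNA was -1.28 (SE 0.215, adjusted p = 0.00439). It stayed above HT-DNA (0.43, adjusted p = 0.0179), a call lost without HT-DNA replicate 1 (0.059) or 3 (0.0882) or HT-DNA+AOA+Asp replicate 2 (0.0505), in a range of 0.000381 to 0.0882. AOA+Asp libraries held 6.2, 6.56 and 5.98 CPM, below every AOA library, without a call (-0.38, adjusted p = 0.0713).

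Ifih1 encodes MDA5, the sensor of long double-stranded RNA. Mock libraries held 1.02, 0.991 and 1.14 CPM, AOA libraries 0.673, 0.343 and 0.465 CPM, and AOA+Asp libraries 0.56, 0.294 and 0.674 CPM. The AOA and AOA+Asp ranges overlapped, and both lay below Mock. HT-DNA libraries held 11.3, 14.9 and 12.3 CPM, HT-DNA+AOA libraries 49.7, 31.3 and 28.6 CPM, and HT-DNA+AOA+Asp libraries 17.9, 16.7 and 17 CPM. These 3 groups did not overlap each other. HT-DNA raised Ifih1 12.2-fold without AOA (log2 3.61, SE 0.238, adjusted p = 5.4e-09), 74.4-fold with AOA (6.22, SE 0.263, adjusted p = 1.7e-12) and 32.9-fold with AOA and aspartate (5.04, SE 0.264, adjusted p = 1.21e-10). The interaction with AOA was 2.61 (SE 0.432, adjusted p = 0.000937), and that with aspartate (-1.18, SE 0.502) had an adjusted p of 0.391. The last 2 folds and both interactions rest on few counts, 13, 8 and 8 in the AOA libraries and 12, 6 and 16 in those of AOA+Asp. Their size is therefore imprecise. The interaction with AOA also includes the lower level in AOA than in Mock, and it ran from 2.32 to 2.90 over its 18 alternatives. Between the DNA-stimulated groups, Ifih1 was 2.85-fold higher with AOA (1.51, adjusted p = 6.48e-07) and 2.13-fold lower again with aspartate (-1.09, adjusted p = 3.22e-05). The difference of HT-DNA+AOA+Asp from HT-DNA (0.42, adjusted p = 0.0505) was called without HT-DNA replicate 2 (0.53, adjusted p = 0.029, in a range of 0.00159 to 0.179). The fall in AOA against Mock (-1.10, adjusted p = 0.0328) rested on 8 to 24 counts a library and was lost without Mock replicate 1 (0.0598), 2 (0.0542) or 3 (0.0783) or AOA replicate 2 (0.147) or 3 (0.0768), in a range of 0.00211 to 0.147.

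Dhx58 encodes LGP2, the RNA helicase that modulates MDA5 and RIG-I without signaling by itself. It stood at 4.74, 4.33 and 4.89 CPM in Mock, 21.4, 19.8 and 23.1 CPM in HT-DNA, 42.6, 38 and 47.2 CPM in HT-DNA+AOA, and 19.2, 17.6 and 17.5 CPM in HT-DNA+AOA+Asp. None of these groups overlapped another. It rose 4.6-fold with HT-DNA (log2 2.20, SE 0.113, adjusted p = 8.58e-11) and 11.6-fold with HT-DNA in AOA-treated cells (3.53, SE 0.118, adjusted p = 4.71e-14), with an interaction of 1.33 (SE 0.166, adjusted p = 6.88e-05). AOA raised it 1.99-fold over HT-DNA (0.99, SE 0.0975, adjusted p = 1.22e-07), and it was 2.35-fold lower with aspartate (-1.23, SE 0.0987, adjusted p = 1.32e-08). Without HT-DNA, AOA libraries held 3.31, 3.86 and 3.84 CPM and AOA+Asp libraries 2.43, 2.3 and 3.12 CPM, the lowest of all groups. Dhx58 was -0.82 (SE 0.139, adjusted p = 0.0012) in AOA+Asp against Mock and -0.48 (adjusted p = 0.0114) in AOA+Asp against AOA, the latter lost without AOA+Asp replicate 2 (0.0521) in a range of 0.0042 to 0.0521. The fall in AOA against Mock (-0.34, adjusted p = 0.0461) was lost without any library of the pair other than Mock replicate 2 (0.064 to 0.159) and had p-values of 0.00635 to 0.159 over its alternatives. The interaction of Dhx58 with aspartate (-0.75, adjusted p = 0.0464) was lost without any library of AOA, AOA+Asp or HT-DNA+AOA+Asp (0.0512 to 0.19), in a range that began at 0.0132. The difference from HT-DNA with both AOA and aspartate (-0.24, adjusted p = 0.0531) was called without HT-DNA replicate 2 (-0.31, adjusted p = 0.0338, in a range of 0.0217 to 0.205).

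The antisense gene Dhx58os overlaps an exon of Dhx58 on the other strand, and the sources used here do not say whether counting used strand, so reads of the pair may not be told apart. Dhx58os was chosen for this overlap and stood at 2.27 CPM in Mock, 0.481 CPM in AOA and 2.11 CPM in AOA+Asp. It was -2.22 in AOA against Mock (SE 0.235, adjusted p = 4.77e-07), and in HT-DNA+AOA against HT-DNA it fell by 1.80 (SE 0.24, adjusted p = 5.66e-06) while Dhx58 rose. In the same 3 groups, Dhx58 stood at 4.65 CPM in Mock, 3.67 CPM in AOA and 2.61 CPM in AOA+Asp, levels near those of Dhx58os. In HT-DNA+AOA, Dhx58 stood at 42.6 CPM. How far shared reads shaped the differences of Dhx58 without HT-DNA was not tested.

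Mavs, the mitochondrial adaptor of RIG-I and MDA5, did not follow these sensors. It stood at 47.5, 47.2 and 46.7 CPM in Mock, 29, 31.8 and 27.9 CPM in AOA, and 40.5, 47.5 and 42 CPM in AOA+Asp. AOA lay below both other groups, which overlapped. With HT-DNA the libraries held 54.2, 54.8 and 52.6 CPM, with HT-DNA+AOA 30.1, 27.4 and 32.2 CPM, and with HT-DNA+AOA+Asp 43.1, 41.5 and 38.4 CPM, again with AOA lowest and no overlap. Mavs fell by 0.67 with AOA (SE 0.0797, adjusted p = 1.88e-06) and by 0.85 with AOA under HT-DNA (SE 0.0799, adjusted p = 6.82e-08), with no call for the difference between these (interaction -0.18, adjusted p = 0.28). It rose with aspartate by 0.55 (adjusted p = 2.2e-05) without HT-DNA and by 0.46 (adjusted p = 0.000143) with it, and stayed 0.39 lower in HT-DNA+AOA+Asp than in HT-DNA on the log2 scale (-0.39, adjusted p = 0.000725). The small rise of Mavs with HT-DNA alone (0.19, SE 0.0776, adjusted p = 0.0487) was lost in all 6 fits that left out a library of Mock or HT-DNA (0.0736 to 0.107) and was 0.08 with library totals (adjusted p = 0.387), in a range of 0.017 to 0.387.

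Because Mavs and the helicases can be compared within a library, their ratio does not depend on the scaling of libraries. Each CPM was first divided by the gene's merged exon length in kb, so the size of a ratio depends on these lengths. Rigi stood at 0.083 of the Mavs level in Mock (SD 0.00767, n = 3), 0.175 in HT-DNA (SD 0.0183), 1.34 in HT-DNA+AOA (SD 0.361) and 0.309 in HT-DNA+AOA+Asp (SD 0.00964). The lowest HT-DNA+AOA library, at 1.06, was above all libraries of the other groups. For Cgas over Sting1 the ratio, likewise per kb, was 0.51 in Mock (SD 0.103), 0.697 in AOA (SD 0.0289), 0.624 in HT-DNA (SD 0.0885), 1.34 in HT-DNA+AOA (SD 0.302) and 0.796 in HT-DNA+AOA+Asp (SD 0.127). Its lowest HT-DNA+AOA library (1.01) exceeded the highest of HT-DNA+AOA+Asp (0.943).

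Tbk1, the kinase that phosphorylates STING and IRF3, was low in AOA, HT-DNA and HT-DNA+AOA and high in Mock and both groups with aspartate. It stood at 59.5, 60.5 and 58.5 CPM in Mock, 37, 35.1 and 33.2 CPM in AOA and 69.5, 60.8 and 67.4 CPM in AOA+Asp. With HT-DNA its libraries held 38.8, 42.9 and 38.4 CPM, with HT-DNA+AOA 39.4, 31.4 and 25.9 CPM, and with HT-DNA+AOA+Asp 57.4, 57 and 56.4 CPM. HT-DNA and HT-DNA+AOA overlapped, and every library of both lay below every library of HT-DNA+AOA+Asp. Tbk1 fell by 0.76 with AOA (SE 0.104, adjusted p = 1e-05) and by 0.57 with HT-DNA (SE 0.103, adjusted p = 0.000268). Aspartate raised it by 0.91 without HT-DNA (SE 0.104, adjusted p = 1.47e-06) and by 0.82 with it (SE 0.105, adjusted p = 4.81e-06), to 0.51 above HT-DNA (adjusted p = 0.000871). The difference between HT-DNA+AOA and HT-DNA (-0.31, adjusted p = 0.0225) was lost without HT-DNA replicate 2 (0.08) or HT-DNA+AOA replicate 2 (0.0703) or 3 (-0.18, 0.0999), and was -0.48 without HT-DNA+AOA replicate 1, in a range of 9.89e-05 to 0.178. In HT-DNA+AOA against AOA, Tbk1 was not called (-0.12, adjusted p = 0.516) but was without HT-DNA+AOA replicate 1 (-0.29, adjusted p = 0.0165, the lowest of a range up to 0.963). Its interaction of AOA with HT-DNA (0.45, adjusted p = 0.0468) was lost without any of its 12 libraries other than HT-DNA replicate 2 and HT-DNA+AOA replicate 3. It was 0.28 without HT-DNA+AOA replicate 1 (adjusted p = 0.124), and its p-values ranged from 0.000799 to 0.124.

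Ikbke, the inducible relative of TBK1 that shares its substrates, was lowered by AOA whether or not HT-DNA was present. Its libraries held 16.3, 21.2 and 19.9 CPM in Mock, 12, 8.93 and 8.43 CPM in AOA, and 14, 14.9 and 12.5 CPM in AOA+Asp. They held 21.1, 20.2 and 22.7 CPM in HT-DNA, 9.35, 10.7 and 9.72 CPM in HT-DNA+AOA, and 13.6, 13.2 and 15.6 CPM in HT-DNA+AOA+Asp. AOA lay lowest, aspartate between, and Mock or HT-DNA highest, with no overlap inside either set of 3 groups. The change with AOA was -0.97 (SE 0.127, adjusted p = 6.42e-06) without HT-DNA and -1.11 (SE 0.128, adjusted p = 9.65e-07) with it, with an interaction of -0.14 (adjusted p = 0.625). Aspartate raised Ikbke by 0.50 (adjusted p = 0.00425) and 0.51 (adjusted p = 0.00343), respectively. HT-DNA alone left no call (0.16, adjusted p = 0.286). Ikbke remained below HT-DNA with both AOA and aspartate (-0.59, adjusted p = 0.000994) and below Mock in AOA+Asp (-0.47, adjusted p = 0.0259). The latter was lost without Mock replicate 2 (0.142) or 3 (0.0879) or AOA+Asp replicate 1 (0.0899) or 3 (0.115), in a range of 0.00137 to 0.142.

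Per kilobase of exon, the order of the members changed between groups. The length used was that of all annotated exons of a gene merged, which can exceed that of the transcripts expressed. Levels between genes are therefore a description only. In Mock, Tbk1 (15.2 CPM per kb, SD 0.262) and Mavs (14.1, SD 0.116) stood highest, followed by Sting1 (4.02, SD 0.333). Ikbke (2.12), Cgas (2.03) and Trex1 (2.01) overlapped each other, and Dhx58 (1.42) and Rigi (1.17) came next without overlap. Ifih1 (0.128, SD 0.0097) and Zbp1 (0.0214, SD 0.0203) were lowest in Mock. In HT-DNA+AOA, Dhx58 (13 CPM per kb, SD 1.4), Rigi (12, SD 3.27) and Trex1 (11.3, SD 2.02) had the highest means with overlapping libraries. Mavs (8.94, SD 0.718) and Tbk1 (8.24, SD 1.74) followed and overlapped each other, and the highest Tbk1 library (10.1) lay above the lowest libraries of Trex1 (9.75) and Rigi (9.99). The level of Trex1 is uncertain because of its overlap with Atrip. Ifih1 followed at 4.48 CPM per kb, Zbp1 (2.68) and Cgas (2.58) overlapped, and Sting1 (1.93) and Ikbke (1.1) were lowest. In HT-DNA+AOA+Asp, Tbk1 (14.6 CPM per kb) and Mavs (12.3) were again highest, ahead of Dhx58 (5.53) and Rigi (3.79).

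**Figure D4:**
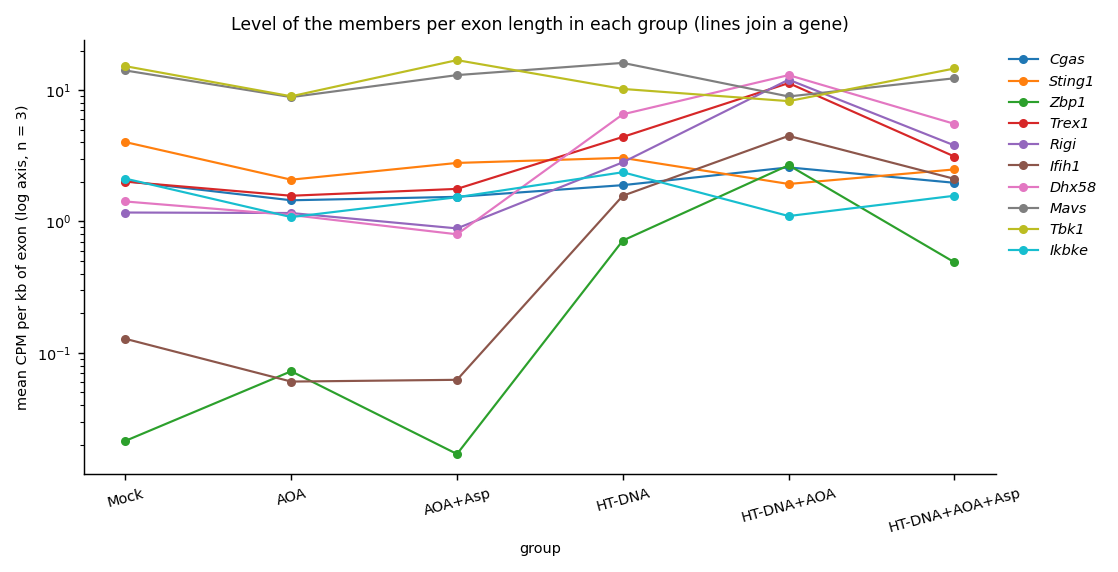
Mean CPM per kb of exon (log axis, n = 3) of the 10 members in each group, with lines joining the values of a gene. Tbk1 and Mavs lead in Mock (15.2 and 14.1), and Dhx58, Rigi and Trex1 lead in HT-DNA+AOA (13, 12 and 11.3).

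Genes around the members in the pathway were read from lists written for this comparison. Of the 6 genes that serve as outputs of the pathway, Ccl5, Cxcl10, Il6, Isg15 and Ifit1 were tested. All 5 were higher in each HT-DNA group than in its own background. The shares of all genes called higher there were 24.2% without AOA, 6.46% with AOA and 1.93% with AOA and aspartate. All 5 were also higher in HT-DNA+AOA than in HT-DNA (22.8% of all genes). They were lower in HT-DNA+AOA+Asp than in HT-DNA+AOA (23.9% of all genes). Cxcl10, a chemokine induced by interferon, stood at 30.7, 30.6 and 31.2 CPM in HT-DNA, 279, 234 and 286 CPM in HT-DNA+AOA, and 26.8, 28 and 25.4 CPM in HT-DNA+AOA+Asp. It was 3.11 higher with AOA on the log2 scale (SE 0.116, adjusted p = 2.72e-13) and fell by 3.32 with aspartate (SE 0.118, adjusted p = 1.93e-13). Ccl5, a T cell chemokine, was at 0 in all Mock libraries and at 22.9, 26.1 and 27.7 CPM in HT-DNA. From 0 in Mock, a call in HT-DNA against Mock could only be higher. Ifnb1, the gene for interferon-β itself, did not pass the filter, with 6, 4 and 2 counts in HT-DNA+AOA, 1, 0 and 0 in HT-DNA+AOA+Asp, and 0 in every other library, HT-DNA included, where up to 3 counts a library are allowed by the value of 0.

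Downstream of the members, Irf7, the interferon-induced relative of Irf3, stood at 4.55, 4.97 and 4.98 CPM in HT-DNA and at 26, 19.6 and 27.3 CPM in HT-DNA+AOA (2.33, SE 0.142, adjusted p = 2.48e-10), and at 3.97, 3.9 and 3.74 CPM in HT-DNA+AOA+Asp. Irf3 itself was not called, at 38.9 CPM in HT-DNA and 42.1 CPM in HT-DNA+AOA (0.11, SE 0.0895, adjusted p = 0.327). Ripk1 and Ripk3, the kinases that ZBP1 engages, were lower in HT-DNA+AOA than in HT-DNA (-0.48 with an adjusted p of 0.00302, and -0.38 with 0.000721) while Zbp1 was higher. Of the 20 downstream adaptors and kinases, 6 were higher and 9 lower in that comparison (median 0.02, as over all genes), where 22.8% of all genes were called higher and 22.7% lower. Of the same 20, 2 were higher and 1 lower in HT-DNA+AOA against AOA, against 6.46% and 6.98% of all genes.

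Among 25 other nucleic acid sensors, 23 were tested. In HT-DNA+AOA against AOA, 5 were higher (6.46% of all genes) and 2 lower (6.98%), with a median of 0.10. The higher ones included Ifi204, a DNA sensor of the PYHIN family, whose close copies may share reads (61.9 to 136 CPM, log2 1.14, SE 0.115, adjusted p = 9.27e-07), and Eif2ak2, the RNA-activated kinase PKR (19 to 47.4 CPM, 1.32, SE 0.188, adjusted p = 7.39e-05). The HT-DNA+AOA libraries held 70.8, 38.2 and 33.1 CPM of Eif2ak2, so replicate 1 raised that mean. Those of AOA held 19.1, 17.8 and 20.1 CPM, and the Mock mean was 36.1 CPM. Tlr3, the endosomal receptor of double-stranded RNA, was called higher there (adjusted p = 2.95e-05), on 4, 3 and 2 counts in the AOA libraries and 31, 22 and 20 in those of HT-DNA+AOA, so that no fold is given. In HT-DNA+AOA against HT-DNA, 9 of the 23 were higher (22.8% of all genes) and 2 lower (22.7%), with a median of 0.24. In AOA against Mock, 3 were higher (22.4% of all genes) and 6 lower (23.3%), with a median of -0.06. The lower ones included Eif2ak2 (-0.93, adjusted p = 0.000551) and Tlr3 (adjusted p = 0.00162), which had 13, 11 and 15 counts in the Mock libraries.

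The 31 regulators of cGAS-STING and RIG-I-like receptor signaling, of which 30 were tested, included 6 higher (6.46% of all genes) and 1 lower (6.98%) in HT-DNA+AOA against AOA, with a median of 0.07. In HT-DNA+AOA+Asp against HT-DNA+AOA, 8 were higher (23.7% of all genes) and 14 lower (23.9%), with a median of -0.18. Usp18, which restrains signaling from the interferon receptor, stood at 6.18 CPM in HT-DNA, 43.3 CPM in HT-DNA+AOA (2.81, SE 0.157, adjusted p = 8.95e-11) and 3.98 CPM in HT-DNA+AOA+Asp. Trim25, the ubiquitin ligase that acts on RIG-I, rose from 126 CPM in AOA to 270 CPM in HT-DNA+AOA (1.10, SE 0.0874, adjusted p = 2.89e-08). Of the 18 genes for nucleic acid clearance other than Trex1, 2 were higher (6.46% of all genes) and 0 lower (6.98%) in HT-DNA+AOA against AOA, with a median of 0.13. Of these genes, 5 were higher (22.8% of all genes) and 4 lower (22.7%) in HT-DNA+AOA against HT-DNA, with a median of 0.08.

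The genes closest to each member in pattern were found by the root mean square difference of their centred log2 CPM means over the 6 groups, among 12747 genes. The closest to Rigi was Tgtp2, an interferon-induced GTPase with a close copy that may share its reads (difference 0.09). Apol9a, likewise 1 of a pair with Apol9b, was closest to Zbp1 (0.35), Rtp4 to Ifih1 (0.44), Tmem229b to Dhx58 (0.20) and A530040E14Rik to Trex1 (0.19). For the members that fell with AOA, the closest were Tmem44 for Sting1 (0.03), Gcfc2 for Tbk1 (0.04), Klhl25 for Ikbke (0.01) and Mrps6 for Mavs (0.03), and for Cgas it was Gm15879 (0.06). Between members the smallest difference was that of Ikbke and Mavs (0.13), followed by Mavs and Sting1 (0.19).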

How the data were processed

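TRIzol RNA of 18 L929 cultures was sequenced by Majorbio. The authors counted reads per gene before deposition and gave expected counts for 57180 genes, not normalized, in which 11.56% of the values were not whole. Its group means were not tested. The aligner, counting program, build and strand setting are not given in the sources used here. The 10 members and all lists were chosen with earlier results of these data known. Values were rounded to whole counts and analysed in R 4.3.3 with edgeR 4.0.16: filterByExpr by group (minimum count 10, minimum total 15), TMM scaling, and a single robust quasi-likelihood model over the 18 libraries, with 9 comparisons and 2 interactions. The steps were tested on simulated data. Libraries of a group differed by more than sampling noise (chi-square per degree of freedom 2.69 to 60.84), and p-values measure the spread between them.

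Genes named were all members in every comparison, from each list at most the 4 called genes with the largest change, always Ripk1, Ripk3, Irf3, Irf7 and Ifnb1, and at most the 3 genes closest in pattern among those reaching 1 CPM. Alternatives were RLE scaling, library totals, a minimum of 10 counts in each library, no filter on low counts, DESeq2 1.42.0 (Wald test), a fit of the compared groups alone, a replicate block, each library left out, and, chosen after seeing the data, Trex1 summed with Atrip. Exon lengths and shared 31-base sequences came from GENCODE M21 (GRCm38), which holds 51884 of the identifiers, and promoters from RefSeq (GRCm38.p6).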

Additional observations from a re-analysis of the deposited data

Results flagged for a closer look

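Differences of the HT-DNA response between backgrounds, each tested as an interaction in the edgeR model over 3 libraries a group, were found for the following members. The interaction of AOA with HT-DNA was positive for Cgas (log2 difference 0.94, adjusted p = 0.00504), Tbk1 (0.45, adjusted p = 0.0468), Trex1 (1.71, adjusted p = 0.00024), Rigi (2.11, adjusted p = 8.28e-06), Ifih1 (2.61, adjusted p = 0.000937) and Dhx58 (1.33, adjusted p = 6.88e-05). Tbk1 fell with HT-DNA in cells without AOA (-0.57) and stood at -0.12 with HT-DNA in AOA-treated cells, so its positive value is a smaller fall. Its call was lost without any 1 of the 12 libraries other than HT-DNA replicate 2 and HT-DNA+AOA replicate 3 (adjusted p = 0.0507 to 0.124). The call of Trex1 was lost when it was summed with Atrip, which overlaps it (0.14, adjusted p = 0.426). The interaction of aspartate with HT-DNA in AOA-treated cells was negative for Trex1 (-2.02, adjusted p = 0.000159), Rigi (-1.28, adjusted p = 0.00439) and Dhx58 (-0.75, adjusted p = 0.0464). The Trex1 call was again lost with Atrip (-0.42, adjusted p = 0.111), and that of Dhx58 without any 1 library of AOA, AOA+Asp or HT-DNA+AOA+Asp (adjusted p = 0.0512 to 0.19). Rigi kept its call in each of the 19 alternatives. HT-DNA+AOA replicate 1 held the highest value of its group for Cgas, Tbk1, Rigi and Ifih1, and its part in these differences was measured by leaving it out: the values were then at least 0.82 for Cgas, 1.86 for Rigi and 2.32 for Ifih1, the lowest over their alternatives, and 0.28 for Tbk1. Groups of 3 libraries are too small for a test of single outlying libraries.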

How the results depend on the processing

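Of the 110 member results (10 members in 9 comparisons and 2 interactions), 71 were called, and 51 of these kept their call and direction in every alternative run. The number of members called changed by over 1.5 times in AOA+Asp against Mock, from 3 (6.47% of all genes called) to 5 without a filter (3.62%) and to 6 with only the libraries compared (18.3%), in HT-DNA against Mock, from 8 (48.2%) to 5 with at least 10 counts in every library (56.5%), and in HT-DNA+AOA+Asp against AOA+Asp, from 5 (3.45%) to 3 under the same minimum (3.94%), which leaves fewer members to test. Leaving out 1 library gave 5 to 7 members in AOA against Mock, 5 to 6 in AOA+Asp against AOA, 2 to 3 in AOA+Asp against Mock, 7 in HT-DNA against Mock, 6 to 7 in HT-DNA+AOA against AOA, 4 to 5 in HT-DNA+AOA+Asp against AOA+Asp, 8 to 10 in HT-DNA+AOA against HT-DNA and in HT-DNA+AOA+Asp against HT-DNA+AOA, and 4 to 8 in HT-DNA+AOA+Asp against HT-DNA. It gave 5 to 6 for the interaction with AOA and 2 to 3 for that with aspartate. Of the called results, 0 changed sign. Among those not called, 16 did in some alternative, and 1 of these was then called: Trex1 in AOA against Mock, at -0.35 as deposited and 0.27 when summed with Atrip. Deviations of same-numbered libraries had correlations of -0.1 to 0.28, with no comparison in which every pair exceeded 0.1. In HT-DNA+AOA against AOA the correlations were 0.28, 0.07 and 0.13. With 3 libraries a group, this check cannot exclude a pairing by replicate number. A replicate block called Rigi in AOA+Asp against AOA (-0.38) and Dhx58 (-0.24) and Ifih1 (0.41) in HT-DNA+AOA+Asp against HT-DNA, lost Mavs in HT-DNA against Mock (0.19), and changed no other call, with 8 members called in AOA against Mock as without it. The cause of these changes was not tested. Depth limits Zbp1 and Ifih1 most in the groups without HT-DNA, and Ifnb1 in all groups.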
